A study of Mus musculus with 6 samples.

Results

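Chromosome 2 was followed through 5 mouse mesotheliomas as 16476 array probes, of the 235402 non-control probe names on the denser of 2 array designs. The members were chosen by position, as the probes placed on chromosome 2 in the mm7 build, without the 174 probes of olfactory receptor (Olfr) genes. No measured value entered that choice, but chromosome 2 was singled out for description with earlier results of these data known. Of the members, 3349 were also on the sparser design.

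The study profiled DNA of primary malignant mesothelioma cells from Arf(+/-) mice, which keep 1 working copy of Arf, and its title calls the tumours asbestos-induced. Its design text speaks of 4 such mice, whereas the sample titles name 5 tumours (ARF-129, ARF-128, ARF-112, ARF-110 and ARF-104), and the labels do not say which of them stands outside the 4. The labels give no genotype, strain, age or treatment for any single tumour, no cell type for ARF-104, and no meaning for the ending PlusMinus in the title of 1 ARF-128 array. Each tumour DNA (Cy5) was hybridised with C57BL/6J DNA (Cy3) on the same array, with no dye swap, so every value is a log2 ratio of tumour over this shared reference.

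Array comparative genomic hybridisation reads DNA copy number: where tumour cells have lost or gained a stretch of chromosome, the probes over it shift together in 1 direction. In diploid cells the loss of 1 of 2 copies in every cell gives -1 on the log2 scale and the gain of 1 copy gives 0.58, and admixed normal cells move both toward 0. Mouse chromosome 2 carries, from its centromere outward, cytokine receptor and integrin genes, the Hoxd cluster, the Wilms tumour gene Wt1 and a distal stretch with Bcl2l1, Aurka and the imprinted Gnas locus.

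The 4 denser arrays (ARF-104, ARF-112, ARF-128 and ARF-129) read a chromosome 2 probe about every 8 kb (medians of 8064 to 8065.5 bp) and the 2 sparser ones (ARF-110 and ARF-128 again) every 20930.5 bp. Probe noise, the SD of log2 ratios estimated from neighbouring probes, was lowest in ARF-110 at 0.15, and stood at 0.36 in ARF-104, at 0.39 in ARF-112 and at 0.49 in ARF-129; the ARF-128 arrays had 0.78 (denser) and 0.43 (sparser). The 2 ARF-128 arrays are repeat measurements of 1 tumour and were counted once, by the denser array unless the sparser one is named. By this noise a short change of moderate depth would be harder to see in ARF-128 and ARF-129 than in ARF-104 and ARF-112. In ARF-110 the noise was low, but the wider spacing limits short changes, because a segment needed at least 5 probes.

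The probes at the edges of the called losses of ARF-104 and ARF-112 are shown. Each pair holds the last probe on 1 side of an edge and the first on the other, as the array design gives them (60 bases, strand not given, mm7). Capitals mark a probe inside a lost stretch and lower case a probe outside it.
First loss of ARF-104, outside, A_67_P00304133 at chr2:10775323-10775382: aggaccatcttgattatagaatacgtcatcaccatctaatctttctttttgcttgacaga
First loss, inside, A_67_P04428025 at chr2:10797129-10797188: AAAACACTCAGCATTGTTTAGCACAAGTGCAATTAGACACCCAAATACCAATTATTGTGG
First loss, inside (in Rsu1), A_67_P04433110 at chr2:13181508-13181567: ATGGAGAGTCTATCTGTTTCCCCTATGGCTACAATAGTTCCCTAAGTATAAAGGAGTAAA
First loss, outside (in Rsu1), A_67_P04433138 at chr2:13193205-13193264: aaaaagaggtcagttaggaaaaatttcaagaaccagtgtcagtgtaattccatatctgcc
Second loss of ARF-104, outside (in St8sia6), A_67_P00308676 at chr2:13607917-13607976: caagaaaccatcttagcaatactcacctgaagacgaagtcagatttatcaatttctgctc
Second loss, inside (in St8sia6), A_67_P04434243 at chr2:13613567-13613626: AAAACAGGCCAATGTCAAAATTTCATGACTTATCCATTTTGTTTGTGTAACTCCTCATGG
Second loss, inside, A_67_P04434706 at chr2:13957056-13957115: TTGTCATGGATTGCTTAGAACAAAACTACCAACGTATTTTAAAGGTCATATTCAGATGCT
Second loss, outside, A_67_P04434719 at chr2:13965339-13965398: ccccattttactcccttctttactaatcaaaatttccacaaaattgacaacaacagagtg
Loss of ARF-112, outside, A_67_P04584308 at chr2:80824121-80824180: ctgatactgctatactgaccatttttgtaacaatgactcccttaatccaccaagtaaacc
Loss of ARF-112, inside, A_67_P04584352 at chr2:80849922-80849981: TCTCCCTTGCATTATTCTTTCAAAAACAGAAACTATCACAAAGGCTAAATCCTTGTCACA
Loss of ARF-112, inside, A_53_P131299 at chr2:84082148-84082207: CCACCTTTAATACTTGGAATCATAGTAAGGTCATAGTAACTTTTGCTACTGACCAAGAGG
Loss of ARF-112, outside, A_67_P04590148 at chr2:84090006-84090065: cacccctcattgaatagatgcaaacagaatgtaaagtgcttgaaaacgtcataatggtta
In ARF-104 the pair within Rsu1 read -1.29 inside and -0.41 outside, and the pair within St8sia6 read -1.01 inside and 0.31 outside. In ARF-112 the left pair read -0.30 inside and 0.18 outside, and the right pair -0.79 inside and -0.03 outside. Pairs also differed in tumours with no call there. The right pair of ARF-112 read -0.87 inside and 0.33 outside for ARF-104. It read -1.50 and 0.35 for ARF-128, and -0.57 and 0.52 for ARF-129. The pair within Rsu1 read -0.81 and 0.76 for ARF-128. For ARF-128 the pair within St8sia6 (0.68 inside, -1.05 outside) and the left pair of ARF-112 (0.34, 0.06) went the other way. A single probe scatters by the noise given above, so an edge is placed by the run of probes on both sides and not by these pairs alone. Of the enzymes used to cut the DNA, the AluI site AGCT stood in 1 and the RsaI site GTAC in 2 of the 16476 probes; both sites read the same on either strand and do not overlap each other.

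Chromosome 2 as a whole was near the centre of the genome in 4 tumours and raised in ARF-112. Its mean log2 ratio was 0.21 for ARF-112, -0.10 for ARF-104, -0.03 for ARF-110, -0.06 for ARF-128 (-0.07 on the sparser array) and -0.02 for ARF-129. Relative to the mean of the other autosomes of the same tumour, chromosome 2 stood 0.25 higher in ARF-112, while the differences of the other 4 tumours lay between -0.10 and -0.01. Over the tumours the difference averaged 0.01 ± 0.14 (SD, n = 5; exact two-sided sign-flip permutation test, p = 1). With 5 tumours no such test can give a p below 0.0625. Without ARF-112 the difference averaged -0.048. In ARF-112 chromosome 2 had the rank 3 of 19 autosomes by its mean, and by the mean over tumours the rank 9.

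Along the chromosome the rise of ARF-112 lay mainly in the distal part. Divided into 3 stretches of 59.8 Mb, chromosome 2 minus the other autosomes stood in ARF-112 at 0.15 in the proximal, 0.17 in the middle and 0.43 in the distal stretch. The distal stretch was at -0.06 for ARF-104, -0.01 for ARF-110, -0.05 for ARF-128 and 0.03 for ARF-129. Over tumours the 3 stretches averaged -0.02 ± 0.10, -0.02 ± 0.11 and 0.07 ± 0.21 (SD, n = 5; exact sign-flip permutation tests adjusted over the 3, p = 0.875 for each), and without ARF-112 the distal mean was -0.022.

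The chromosome was divided in each tumour into segments of like level (penalised least squares, at least 5 probes), and a segment was called gained at 0.25 or more and lost at -0.25 or less. Of the 166 bins of 1 Mb on chromosome 2 with a value in every tumour, 45.2% lay in gained segments in ARF-112 (8.63% of all autosomal bins were gained in that tumour) and 0 in the other 4 tumours, where 7.89% to 20.5% of autosomal bins were. Lost segments took up 2.41% of the bins in ARF-110 (3.95% of autosomal bins), 1.81% in ARF-104 (1.51%), 1.81% in ARF-112 (15.2%), and 0 for ARF-128 (1.93%) and for ARF-129 (26.6%). ARF-129, the tumour with the most altered genome of the 5, thus had no called segment on chromosome 2. Neighbouring segments differed by 0.25 or more at 9 boundaries, of which ARF-104 had 4, ARF-112 3 and ARF-110 2.

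**Figure D1:**
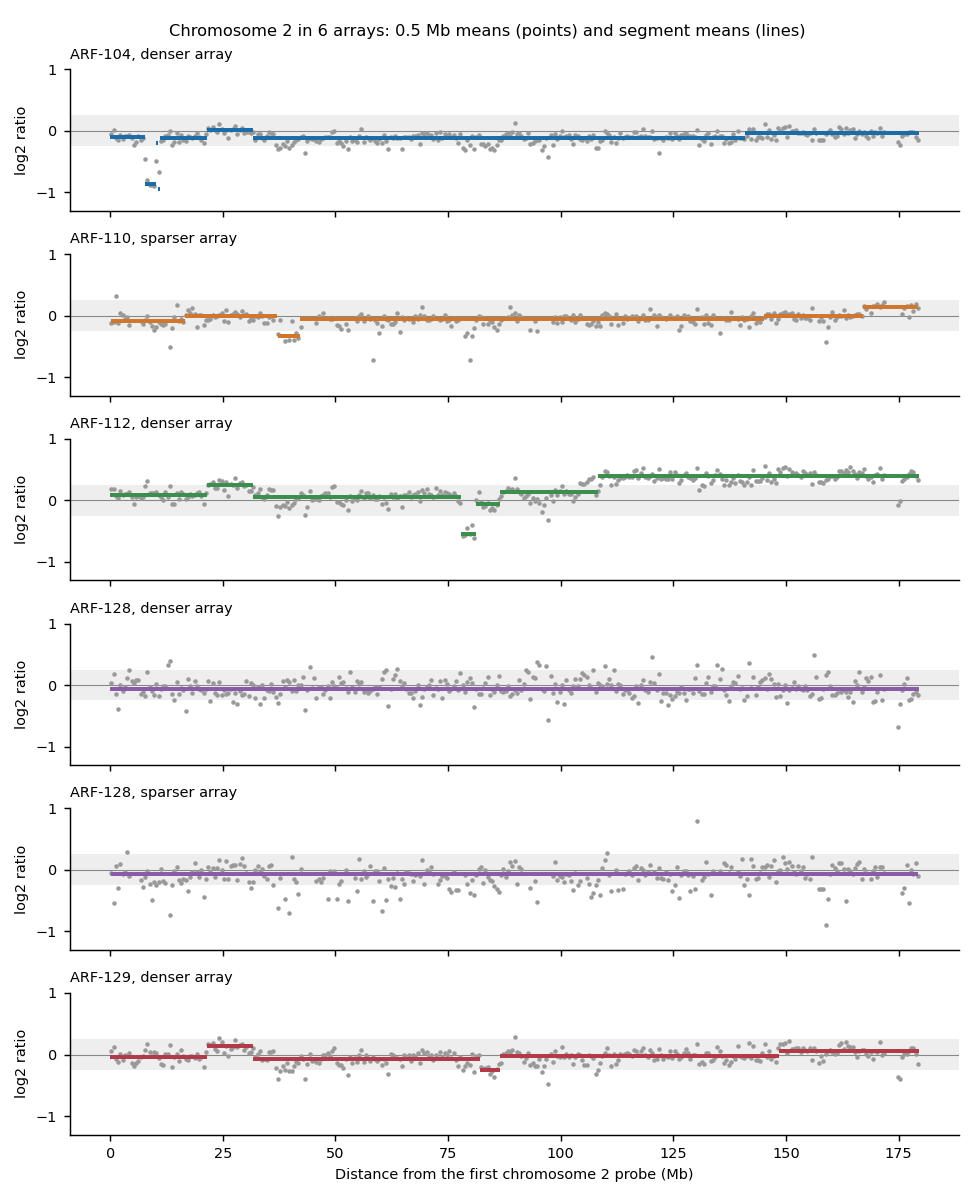
Chromosome 2 on the 6 arrays; the x axis gives the distance from the first chromosome 2 probe in Mb and the y axis the log2 ratio of tumour over reference. Points are means of 0.5 Mb, lines are segment means, and the grey band spans -0.25 to 0.25; ARF-104 has 2 short losses (-0.86 and -0.94), ARF-112 a short loss (-0.54) and a long distal gain (0.39), and ARF-128 a flat line on both arrays (-0.06 and -0.07).

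At the main penalty (5 log n) ARF-104 carried 2 short and deep losses close to each other near the proximal end. The first ran from 10797129 to 13181567 (2.38 Mb, 185 probes) at -0.86, that is 55.2% of the signal of the reference, with a probe SD of 0.41 and 99.5% of its probes below 0. The second ran from 13613567 to 13957115 (0.344 Mb, 26 probes) at -0.94, that is 52.0% of the signal of the reference, with all of its probes below 0. Between them lay 36 probes over 0.415 Mb, from 13193205 to 13607976, at -0.19. The segments outside the pair stood at -0.10 before the first and -0.12 after the second, so the stretch between the losses lay near its outer neighbours and not at the level of the losses. The separation rests on the setting: at the higher penalty (10 log n) the whole stretch from 10797129 to 13957115 formed 1 lost segment at -0.77. With normexp background the second loss was not a segment, while the first remained lost at -0.33. On the probes of both designs the first remained lost at -0.92. The second held only 4 of those probes, fewer than the 5 a segment needs, so that set cannot test it.

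No other tumour had a called change over these stretches, but ARF-110 had too few probes over the second for a segment of its own. The probes of the first loss averaged -0.86 for ARF-104, against -0.12 for ARF-110, 0.18 for ARF-112, 0.01 for ARF-128 (-0.23 on the sparser array) and 0.07 for ARF-129. Those of the second averaged -0.94 for ARF-104, against -0.19 for ARF-110 (4 probes), 0.12 for ARF-112, -0.05 for ARF-128 (-0.43 on the sparser array) and -0.07 for ARF-129. Taken probe by probe against the mean of ARF-112 and ARF-129, ARF-104 differed by -0.98 over the first loss (probe SD 0.23) and by -0.97 over the second (probe SD 0.28). The scatter of this difference over the first loss was smaller than that of the ratios themselves (0.41). At the lower penalty (2.5 log n), but not at the main one, a further short stretch of ARF-104 was called lost. It ran from 124670998 to 124915437 (22 probes) at -0.71, against 0.03 for ARF-110, 0.49 for ARF-112, 0.17 for ARF-128 and 0.04 for ARF-129. Its difference from the mean of ARF-112 and ARF-129 was -0.97 (probe SD 0.45).

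**Figure D2:**
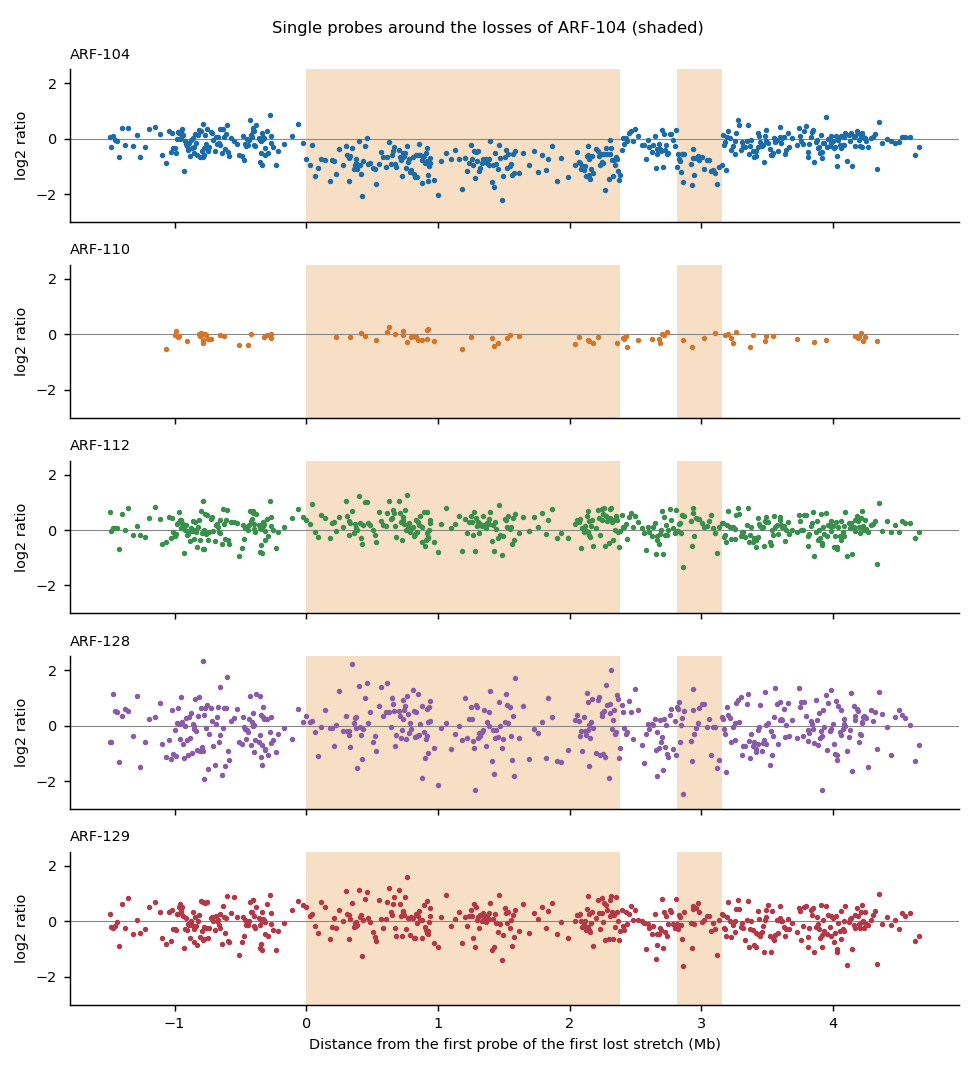
Single probes around the losses of ARF-104, with the 5 tumours in panels (ARF-104 on top; ARF-110 on its sparser array); the x axis gives the distance from the first lost probe in Mb and the y axis the log2 ratio. Shading marks the 2 losses at -0.86 and -0.94; the ARF-104 points drop within the shading and return to -0.19 between, while in the other panels the stretch means stay between -0.19 and 0.18.

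The first loss held 11 genes with a current symbol whole and part of a twelfth, Rsu1. All 11 were lowest in ARF-104 of the 5 tumours, with gene means from -1.31 to -0.57 there; 7.92% of autosomal genes were lowest in ARF-104, but these genes lie in a stretch chosen for being low, so the count describes the stretch. Prkcq, the theta isoform of protein kinase C used in T-cell receptor signalling, stood at -0.90 for ARF-104, against -0.04 for ARF-110, 0.21 for ARF-112, 0.05 for ARF-128 and 0.06 for ARF-129. Itga8, the integrin alpha 8 chain, stood at -0.83 for ARF-104, against -0.23 for ARF-110, 0.14 for ARF-112, -0.21 for ARF-128 and 0.02 for ARF-129, with -0.74 on the sparser ARF-128 array. Mindy3, a deubiquitinase, had -1.02 for ARF-104, against -0.08 for ARF-110, 0.05 for ARF-112, 0.14 for ARF-128 and -0.13 for ARF-129. In each of these genes ARF-104 lay below every other tumour.

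Pter, a phosphotriesterase-related gene, stood at -0.88 for ARF-104, against -0.15 for ARF-110, 0.13 for ARF-112, 0.04 for ARF-128 and 0.10 for ARF-129. The remaining genes of the first loss fall outside the rule by which genes were named and were picked after their values were seen. They include both interleukin receptor genes of the region, Il2ra at -1.04 and Il15ra at -0.74 for ARF-104, the helicase gene Fbh1 at -0.63, and Pfkfb3, a regulator of glycolysis, at -0.57. Pfkfb3 stood apart from the other genes in that its values in the other tumours were raised, at 0.18 for ARF-110, 0.68 for ARF-112, 0.66 for ARF-128 and 0.74 for ARF-129, so its difference from them was as large as that of its neighbours.

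Edges of both losses fell inside genes. Rsu1, which encodes a Ras suppressor that binds the focal adhesion protein PINCH, had 22 probes inside the first loss with a mean of -0.85 for ARF-104 and 2 outside with a mean of -0.20. St8sia6, a sialyltransferase gene, had 13 probes inside the second loss with a mean of -0.92 and 2 outside with a mean of 0.02. The St8sia6 probes inside averaged -0.33 for ARF-110, 0.08 for ARF-112, -0.02 for ARF-128 and -0.17 for ARF-129, and the gene stood at -0.74 on the sparser ARF-128 array. The first loss began 255 kb past Sfmbt2, a polycomb gene that is imprinted in mouse, which stood at -0.06 for ARF-104, against -0.10 for ARF-110, 0.13 for ARF-112, -0.13 for ARF-128 and 0.03 for ARF-129, and the second ended 17.2 kb before Hacd1, a gene of very-long-chain fatty acid synthesis, at -0.23 for ARF-104, against 0.00 for ARF-110, 0.06 for ARF-112, -0.24 for ARF-128 and 0.01 for ARF-129. Both of these neighbours lay within the spread of the other tumours.

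The stretch between the losses held Vim and Trdmt1 whole. Vim, the gene of the intermediate filament protein vimentin that mesothelial and mesenchymal cells express, was read by 2 probes and stood at -0.12 for ARF-104, against -0.02 for ARF-110, 0.14 for ARF-112, -0.26 for ARF-128 and -0.03 for ARF-129 (named after its value was seen). Trdmt1, a tRNA methyltransferase gene, stood at -0.51 for ARF-104, against -0.25 for ARF-110, -0.41 for ARF-112, -0.70 for ARF-128 and -0.67 for ARF-129. It was below 0 in all 5 tumours and lower in ARF-128 and ARF-129 than in ARF-104 (mean -0.51 ± 0.19, SD, n = 5; limma adjusted p = 0.019, and 0.084 once scan day was a random block).

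**Figure D3:**
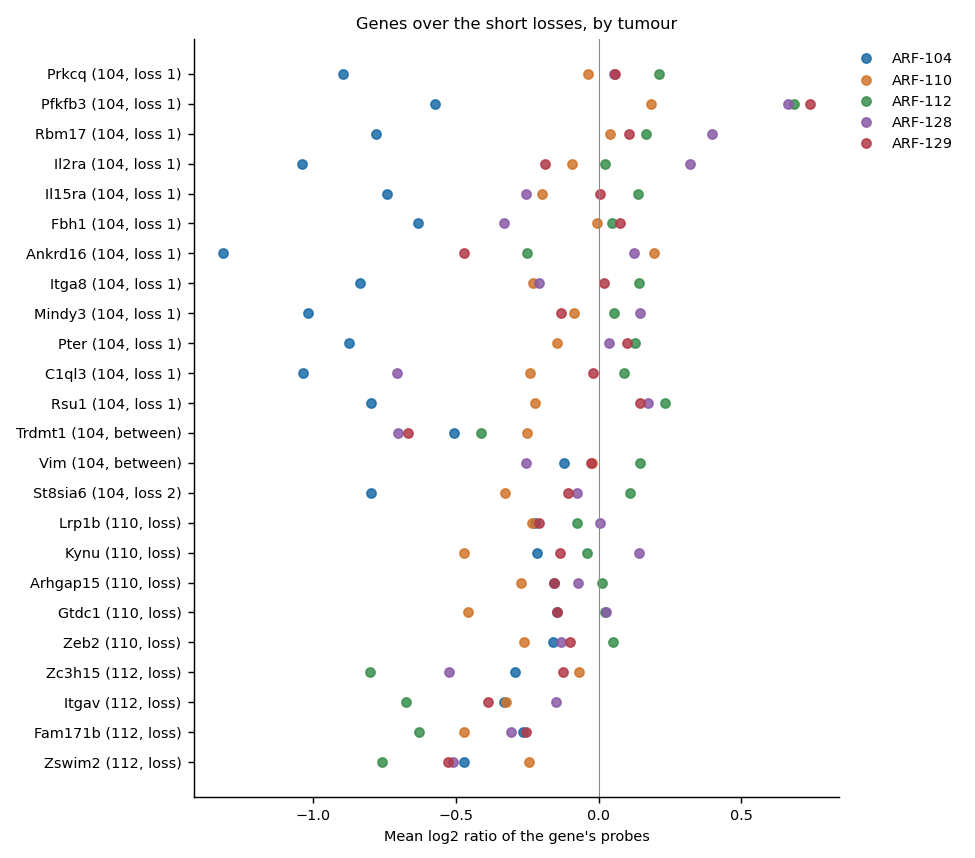
Mean log2 ratio (x axis) of the probes of each gene with a current symbol that lies in or across a short loss, for the 5 tumours; the label names the tumour and loss each gene belongs to. ARF-104 lies left of the other tumours for Prkcq to Rsu1 and for St8sia6 but not for Trdmt1 and Vim between the losses; ARF-112 lies left for its 4 genes, whose values in the other tumours are also below 0.

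ARF-112 had a single called loss on the chromosome, near its middle. It ran from 80849922 to 84082207 (3.23 Mb, 172 probes) at -0.54, that is 68.8% of the signal of the reference, between neighbours at 0.06 and -0.05, and 94.8% of its probes lay below 0. Normexp background (offset 50) moved the first ARF-104 loss from -0.86 to -0.33, while the threshold stayed at 0.25, so its calls are not on the same scale. The call of the ARF-112 loss ended there, with the segment at -0.21, and on the probes of both designs the loss was not a segment. The same probes averaged -0.23 for ARF-104, -0.29 for ARF-110, -0.09 for ARF-128 (-0.33 on the sparser array) and -0.19 for ARF-129, with no call in any of them. Relative to the 2 Mb on both sides, the stretch stood at -0.58 for ARF-112, against -0.10 for ARF-104, -0.23 for ARF-110, -0.03 for ARF-128 (-0.23 on its sparser array) and -0.09 for ARF-129. All 5 tumours thus lay below their own flanks there, ARF-112 furthest, and its difference from the mean of ARF-104 and ARF-129 at the same probes was -0.33 (probe SD 0.15). The mean GC content of the probes was 36.1% in the stretch, 36.0% on both sides and 36.5% over chromosome 2.

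The loss held 4 genes with a current symbol, and each was lowest in ARF-112 (14% of autosomal genes were); the stretch was called for being low there, so this describes it. Itgav, the alpha V integrin chain that pairs with several beta chains as a receptor for vitronectin and fibronectin, stood at -0.67 for ARF-112, against -0.33 for ARF-104, -0.32 for ARF-110, -0.15 for ARF-128 and -0.39 for ARF-129, with -0.74 on the sparser ARF-128 array. Zswim2, a zinc finger ubiquitin ligase gene, stood at -0.76 for ARF-112, against -0.47 for ARF-104, -0.24 for ARF-110, -0.51 for ARF-128 and -0.53 for ARF-129. Fam171b and Zc3h15, picked after their values were seen, stood at -0.63 and -0.80 for ARF-112 and from -0.47 to -0.25 and from -0.52 to -0.07 in the others. Over the 5 tumours Itgav averaged -0.37 ± 0.19 and Zswim2 -0.50 ± 0.18 (SD, n = 5; limma adjusted p = 0.041 and 0.019, and 0.171 and 0.091 once scan day was a random block). Nup35, a nuclear pore gene before the loss, stood at 0.21 for ARF-112, -0.03 for ARF-104, 0.03 for ARF-128 and 0.07 for ARF-129. Calcrl, the receptor gene of adrenomedullin and calcitonin gene-related peptide after it, stood at 0.15 for ARF-112, against -0.06 for ARF-104, -0.03 for ARF-110, 0.17 for ARF-128 and -0.07 for ARF-129.

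**Figure D4:**
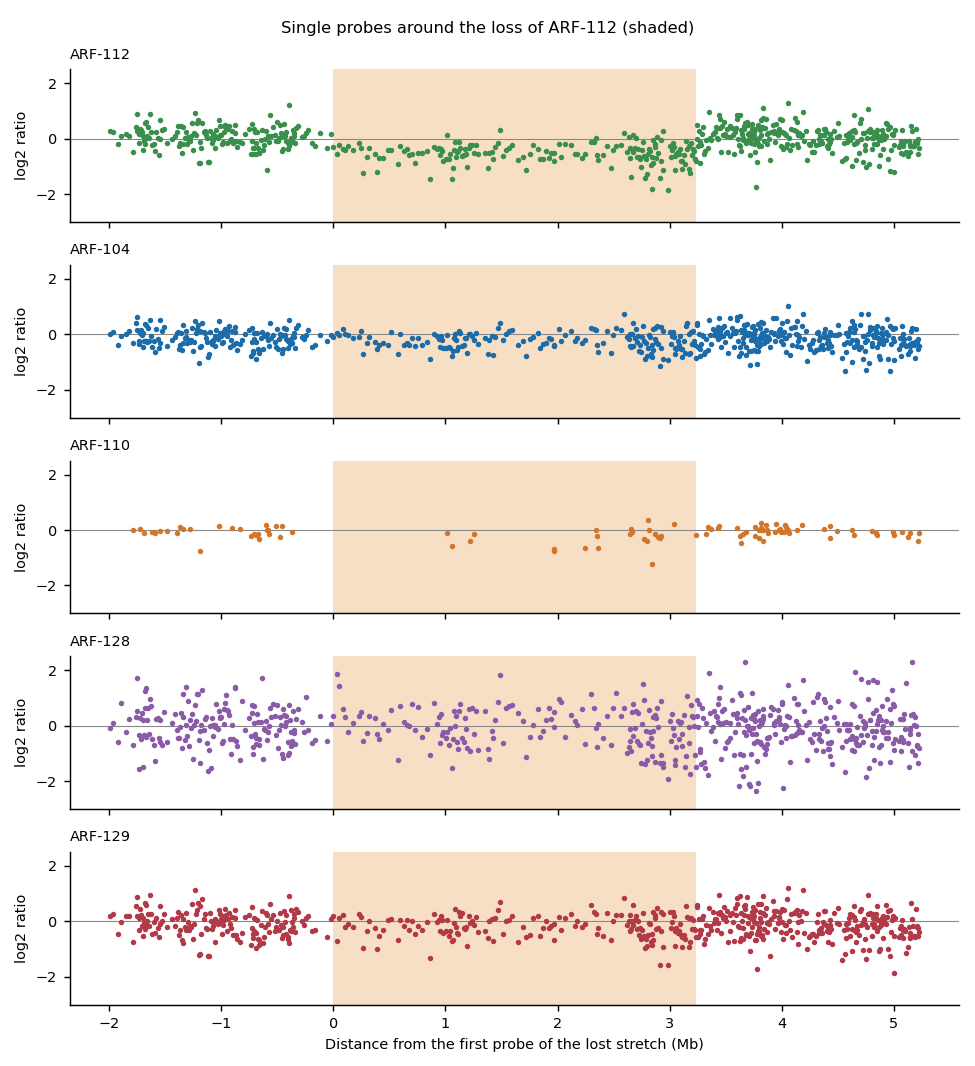
Single probes around the loss of ARF-112, with ARF-112 on top and the other tumours below; the x axis gives the distance from the first lost probe in Mb and the y axis the log2 ratio. The ARF-112 points average -0.54 within the shading, against -0.23 for ARF-104, -0.29 for ARF-110, -0.09 for ARF-128 and -0.19 for ARF-129.

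The longest change on chromosome 2 was a gain of its distal part in ARF-112. It ran from 111301903 to the last probe at 182489782 (71.2 Mb, 6764 probes, 41.1% of the members) at 0.39, that is 131% of the signal of the reference. Over the same probes the mean was -0.07 for ARF-104, -0.0045 for ARF-110, -0.06 for ARF-128 (-0.04 on the sparser array) and 0.02 for ARF-129. In windows of 10 Mb from 110 Mb to the end ARF-112 stayed between 0.34 and 0.44, against -0.11 to -0.01 for ARF-104. The level was therefore even to the end of the chromosome and below that of 1 added copy in every cell. With normexp background the ratios of the gain lay nearer 0 while the threshold was kept, and most of the gain fell short of it. It stood there at 0.20 and 0.23 on both sides of a called piece of 3.00 Mb at 0.29. On the main ratios, with a threshold of 0.4, none of it was called. Probe by probe, ARF-112 exceeded the mean of ARF-104 and ARF-129 by 0.41 (probe SD 0.18).

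The start of the gain was less sharp than the edges of the losses. The step at 111301903 was 0.26, just past the 0.25 that counts a boundary, from a segment at 0.13 that began at 89476289. The nearest gene, A26c3, stood at 0.05 for ARF-112, against -0.47 for ARF-104, -0.20 for ARF-110, -0.66 for ARF-128 and -0.39 for ARF-129. With ratios corrected for GC content the gain began at 107100468 and had a mean of 0.37.

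Of 586 genes with a current symbol in the gain, 541 had a mean above 0 for ARF-112 (median 0.41), and 462 of the 536 with a value in every tumour were highest there (23.3% of autosomal genes were), a description of a stretch called for being high. All 20 listed growth-promoting genes in the gain were above 0 for ARF-112 with a median of 0.51, against 0.09 for the 9 elsewhere on the chromosome. Of the 9 listed tumour suppressor genes in the gain 8 were above 0, with a median of 0.34 against 0.06 for the 11 elsewhere. Both contrasts follow from the stretch being called for its high level in ARF-112, so they do not describe the lists. Some of the 20 growth-promoting genes were read by 1 probe, among them Ube2c and Snai1. Bcl2l1, the gene of the anti-apoptotic protein Bcl-xL, stood at 0.53 for ARF-112, against 0.05 for ARF-104, 0.17 for ARF-110, 0.32 for ARF-128 and 0.12 for ARF-129. Tpx2, which activates the mitotic kinase Aurora A, stood at 0.57 for ARF-112, against 0.07 for ARF-104, 0.05 for ARF-110, 0.18 for ARF-128 and 0.22 for ARF-129. Cdc25b, a phosphatase gene of mitotic entry, stood at 0.82 for ARF-112, against 0.24 for ARF-104, 0.11 for ARF-110, -0.09 for ARF-128 and 0.60 for ARF-129. ARF-112 was the highest tumour in all 3, and on the sparser ARF-128 array Bcl2l1 stood at -0.05 and Cdc25b at 0.44.

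Of the 8 named developmental, imprinted and nonagouti-locus genes of the distal stretch, ARF-112 was the highest tumour for 6. All 8 lie in its distal gain, where 462 of 536 genes were highest in ARF-112, so the count describes the stretch. Jag1, a Notch ligand gene, stood at 0.87 for ARF-112, against 0.42 for ARF-104, 0.00 for ARF-110, 0.18 for ARF-128 and 0.34 for ARF-129, and Bmp7, a growth factor gene of the TGF-beta family, at 0.50 for ARF-112, against 0.04 for ARF-104, 0.22 for ARF-110, -0.27 for ARF-128 and 0.19 for ARF-129. The imprinted genes H13 and Gnas stood at 0.39 for ARF-112, against -0.12 for ARF-104, 0.09 for ARF-110, -0.22 for ARF-128 and 0.07 for ARF-129, and at 0.37 for ARF-112, against -0.11 for ARF-104, 0.12 for ARF-110, -0.08 for ARF-128 and 0.02 for ARF-129. Of the 8 measured genes at the nonagouti locus, where C57BL/6J carries the a allele, all 8 were above 0 for ARF-112 with a median of 0.42. Over the whole gain 541 of 586 genes were above 0 with a median of 0.41, so this too describes the stretch. Ncoa6, a nuclear receptor coactivator gene, stood at 0.42 for ARF-112, against 0.06 for ARF-104, 0.00 for ARF-110, -0.08 for ARF-128 and 0.04 for ARF-129, and Ahcy, which breaks down S-adenosylhomocysteine, at 0.53 for ARF-112, against 0.20 for ARF-104, -0.09 for ARF-110, -0.29 for ARF-128 and 0.39 for ARF-129. The other 2 were highest in ARF-128 on its denser array. Raly, an RNA-binding protein gene, stood at 0.42 for ARF-112, against 0.16 for ARF-104, -0.03 for ARF-110, 0.54 for ARF-128 and 0.23 for ARF-129, with 0.22 on the sparser ARF-128 array. Eif2s2, a translation initiation factor gene, stood at 0.42 for ARF-112, against 0.20 for ARF-104, 0.01 for ARF-110, 0.47 for ARF-128 and 0.38 for ARF-129, with 0.05 on the sparser ARF-128 array. None of the 8 genes passed the test over the 5 tumours (limma adjusted p from 0.075 for Eif2s2 to 0.815 for H13).

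ARF-110 had 1 called loss and a slightly raised distal end. The loss, from 40229297 to 45064144 (4.83 Mb), rested on 27 probes of the sparser design and had a mean of -0.33, that is 79.6% of the signal of the reference, with all probes below 0. Over the same stretch, read by 459 probes of the denser design, the mean was -0.05 for ARF-112, -0.20 for ARF-104, -0.01 for ARF-128 and -0.20 for ARF-129. The sparser ARF-128 array, which shares the 27 probes, stood at -0.33 too. With ratios corrected for GC content the 27 probes averaged -0.29 for ARF-110 and no longer formed a segment of their own, nor did they with normexp background or at the higher penalty.

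The stretch is poor in genes and holds very long ones. Lrp1b, a giant lipoprotein receptor gene often deleted in human tumours, was read by 247 probes on the denser and 2 on the sparser design and stood at -0.23 for ARF-110, against -0.08 for ARF-112, -0.22 for ARF-104, 0.00 for ARF-128 and -0.21 for ARF-129. Arhgap15, a Rac GTPase-activating gene, stood at -0.27 for ARF-110, against 0.01 for ARF-112, -0.16 for ARF-104, -0.07 for ARF-128 and -0.16 for ARF-129, and Zeb2, a transcription factor gene of epithelial-mesenchymal transition that lies across the distal edge, at -0.26 for ARF-110, against 0.05 for ARF-112, -0.16 for ARF-104, -0.13 for ARF-128 and -0.10 for ARF-129. Of the 5 tumours, with ARF-128 on its denser array, ARF-110 was lowest for the 4 genes with a current symbol whole inside. The margin against ARF-104 was 0.01 for Lrp1b, and 20.4% of autosomal genes were lowest in ARF-110. The stretch was called for being low there, so the count describes the stretch. Arhgap15, like Lrp1b, was read by only 2 probes in ARF-110. On the sparser ARF-128 array, of the same design as ARF-110, Arhgap15 stood at -0.29, below ARF-110. Lrp1b (-0.20) and Zeb2 (-0.23) stood above ARF-110 on that array. At the distal end, from 170139797 to 182369099, 216 probes averaged 0.14 for ARF-110 against -0.01 in the segment before, a level under the threshold, with 0.40 for ARF-112, -0.05 for ARF-104, -0.11 for ARF-128 (-0.04 on the sparser array) and 0.02 for ARF-129. This end was kept with GC correction, at 0.12.

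ARF-128 and ARF-129 had no called change on chromosome 2. In ARF-128 the whole chromosome formed 1 segment on both arrays, at -0.06 on the denser and -0.07 on the sparser. ARF-129 was divided into 6 segments between -0.25 and 0.13. Its lowest, from 85078298 to 89473608, stood just outside the threshold at -0.249, and the first gained segment of ARF-112, from 24392424 to 34801897, just inside it at 0.251. Both calls turned on the last decimal shown.

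Several of the weaker boundaries lay at the same probes in different tumours. The boundary between 24385842 and 24392424 was found in ARF-104, ARF-112 and ARF-129, that at 34.8 Mb in the same 3, and that at 89473608 in ARF-112 and ARF-129. Between the first 2 of them the mean rose together, to 0.25 in ARF-112 (0.09 in the segment before), 0.13 in ARF-129 (-0.03) and 0.01 in ARF-104 (-0.12). Probes in that stretch had a mean GC content of 37.3%, and those of the lowest ARF-129 segment one of 34.7%, against 36.5% over chromosome 2. After GC correction none of these 3 boundaries was found, while the losses of ARF-104 (-0.84 and -0.91) and of ARF-112 (-0.49) and the distal gain of ARF-112 were. With normexp background the ratios of these losses and of the gain lay nearer 0, and the threshold was kept. Only the first loss of ARF-104 (-0.33) and 3.00 Mb of the distal gain (0.29) then kept a call, and 5 probes of ARF-129 from 150953884 to 151175713 were newly called gained at 0.54.

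Over the 166 bins the ratios followed GC content with Pearson's r of 0.70 for ARF-129, 0.51 for ARF-112, 0.46 for ARF-104, 0.39 for ARF-110, 0.37 on the sparser ARF-128 array and -0.15 on the denser one. Bins share probes and base composition between tumours, so these values are descriptions. ARF-129 correlated with ARF-112 at r = 0.67 and with ARF-104 at r = 0.51. The 2 arrays of ARF-128 correlated with each other at r = -0.06, so the small ups and downs along chromosome 2 in that tumour were not repeated between its arrays.

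**Figure D5:**
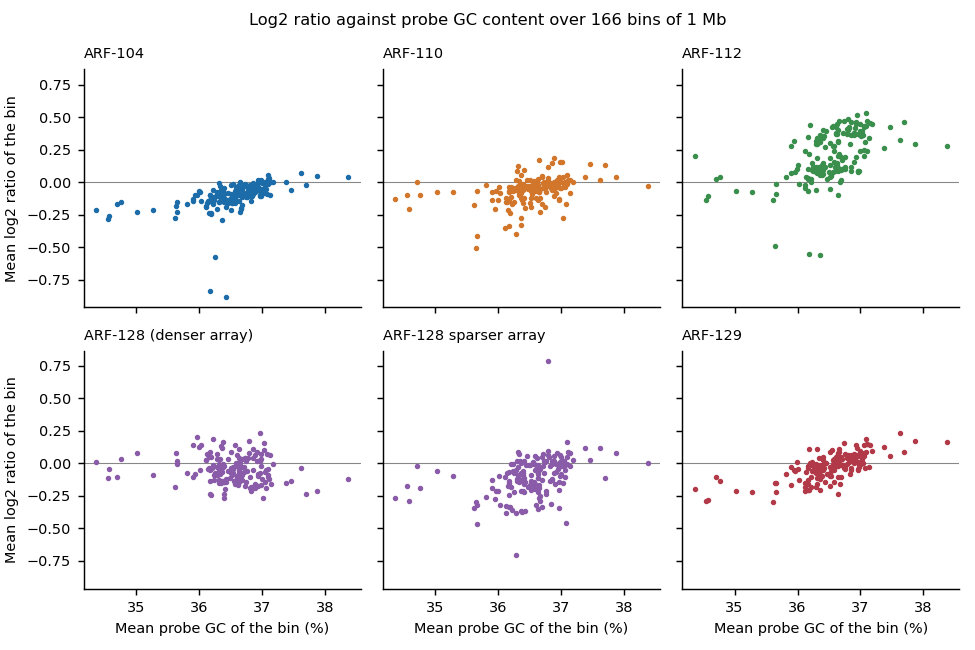
Mean log2 ratio (y axis) against mean probe GC content in percent (x axis) for the 166 bins of 1 Mb on chromosome 2, 1 panel per array. Ratios rise with GC content in ARF-104, ARF-110, ARF-112, ARF-129 and on the sparser ARF-128 array (r from 0.37 to 0.70) but not on the denser ARF-128 array (r = -0.15); the 3 lowest points of ARF-104 and of ARF-112 are the bins of their losses, and the upper cloud of ARF-112 is its distal gain.

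Bins and genes were then asked whether they left the centre in the same direction over the 5 tumours (limma over all 2179 autosomal bins or 19905 autosomal genes, Benjamini-Hochberg adjustment). No chromosome 2 bin was higher (0 also at an unadjusted p under 0.05; 3.9% of autosomal bins were higher), and 1 was lower (10 unadjusted; 0.642% of autosomal bins). That bin, from 83 to 84 Mb, lies in the ARF-112 loss and holds Itgav and Zswim2. It stood at -0.56 for ARF-112, -0.24 for ARF-104, -0.24 for ARF-110, -0.24 for ARF-128 (-0.34 on the sparser array) and -0.20 for ARF-129 (mean -0.30 ± 0.15, SD, n = 5; limma adjusted p = 0.0471, and 0.0197 once scan day was a random block). The bin no longer passed when any 1 tumour other than ARF-128 was left out (4 to 16 lower bins unadjusted), nor with normexp background, GC correction or segment means (3, 6 and 4 lower bins unadjusted).

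Of 1556 chromosome 2 genes tested, 93 (5.98%) were higher and 65 (4.18%) lower than the reference over the tumours, both shares below the 8.09% and 6.51% of all autosomal genes. The gene sets are unlike, because the autosomal shares keep the Olfr genes of the other chromosomes. With the Olfr probes of chromosome 2 kept, 5.82% of its genes were higher and 5.94% lower. With the day of the scan as a random block 0 passed in either direction (134 higher and 119 lower at an unadjusted p under 0.05). Without ARF-129, without ARF-112 or without ARF-104, 0 passed in either direction as well (132 to 204 higher and 97 to 207 lower unadjusted), whereas without ARF-110 156 were higher. Of the 158 called genes 94 were read by 1 probe, and 20 of the higher and 17 of the lower by 3 or more. The higher genes had a median probe GC content of 38.3% and the lower ones of 35.0%, against 36.7% for the rest. With GC correction 62 of the 93 higher and 53 of the 65 lower genes were still called in the same direction. ARF-110 lay closest to 0: it was the lowest tumour for 85 of the 93 higher genes and the highest for 47 of the 65 lower ones. It was lowest for 20.4% of autosomal genes, and lowest for 337 and highest for 164 of the 1398 genes not called. In this test only ARF-110 was read on the sparser design, so tumour and design cannot be told apart.

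Among the genes read by 3 or more probes with 1 sign in all tumours (84 up and 67 down), 7 of the 10 highest lay in the distal gain of ARF-112 and the other 3 proximal to 39 Mb. Slc12a5, the neuronal potassium-chloride cotransporter gene, had the largest mean, at 0.54 for ARF-104, 0.10 for ARF-110, 1.02 for ARF-112, 1.05 for ARF-128 and 0.77 for ARF-129 (limma adjusted p = 0.022). Eef1a2, a translation elongation factor gene expressed in muscle and brain, stood at 0.50 for ARF-104, 0.24 for ARF-110, 0.96 for ARF-112, 0.81 for ARF-128 and 0.68 for ARF-129 (limma adjusted p = 0.017). Pmepa1, a target and inhibitor of TGF-beta signalling, stood at 0.52 for ARF-104, 0.10 for ARF-110, 0.87 for ARF-112, 1.05 for ARF-128 and 0.63 for ARF-129 (limma adjusted p = 0.025). In Pmepa1 and Slc12a5 the denser ARF-128 array was above ARF-112, but the sparser one gave 0.50 and 0.64.

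Gdap1l1 averaged 0.63, A730036I17Rik 0.56, Nr5a1, the steroidogenic factor 1 gene, 0.51, Ube2v1, which helps to build lysine 63-linked ubiquitin chains in NF-kB signalling, 0.48, Lrrc8a, a subunit gene of the volume-regulated anion channel, 0.46, Bpifb1 0.45 and Fpgs, the folylpolyglutamate synthase gene, 0.44 (limma adjusted p from 0.031 to 0.053). Bpifb1 alone of these did not pass at 0.05, and Ube2v1 stood at -0.19 on the sparser ARF-128 array against 0.95 on the denser.

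Of the 10 lowest genes 5 lay in the distal gain of ARF-112, 1 in its first gain and 1 in its loss, and Trdmt1 lay between the losses of ARF-104. Mcm10, a replication initiation factor gene, had the lowest mean, at -0.71 for ARF-104, -0.57 for ARF-110, -0.58 for ARF-112, -1.41 for ARF-128 and -0.98 for ARF-129 (mean -0.85 ± 0.35, SD, n = 5; limma adjusted p = 0.014). Pdk1, a kinase gene that restrains pyruvate dehydrogenase, stood at -0.78 for ARF-104, -0.11 for ARF-110, -0.45 for ARF-112, -1.24 for ARF-128 and -0.70 for ARF-129 (limma adjusted p = 0.028). Sdcbp2 averaged -0.55 and Crls1, the cardiolipin synthase gene, -0.44 (limma adjusted p = 0.039 and 0.034). Emilin3 at -0.56, Zc3h8 at -0.45 (0.19 on the sparser ARF-128 array) and Snrnp200, a spliceosomal helicase gene, at -0.42 did not pass (limma adjusted p from 0.063 to 0.089). These values come from single genes within segments near 0: on segment means the values of Snrnp200, Zc3h8, Crls1, Sdcbp2 and Emilin3 were above 0, and no chromosome 2 gene was called.

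The gene lists were read against the 8.09% of autosomal genes that were higher and the 6.51% that were lower. Among tested genes, the median of the 5-tumour mean was 0.04 for 16 NF-kB and TNF signalling genes (1 higher, 0 lower), -0.10 for 20 tumour suppressors (1 and 0), 0.04 for 25 growth-promoting genes (2 and 0), -0.01 for 18 very large genes (0 and 0) and -0.09 for 18 matrix, adhesion and integrin genes (0 and 1). It was -0.01 over all autosomal genes and 0.02 over chromosome 2. The higher tumour suppressor was Dusp2, a phosphatase gene that switches off MAP kinases, read by 2 probes. The higher growth-promoting genes were Egfl7, a secreted endothelial factor gene, and Set, a histone chaperone gene, read by 2 probes each. The lower adhesion gene was Itgav, and the higher NF-kB gene Ube2v1. None of these 5 calls held once scan day was a random block (limma adjusted p from 0.139 for Egfl7 to 0.184 for Dusp2).

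Of 21 Hox and limb developmental genes, 4 were higher and 0 lower (median 0.09), beside 8.09% of autosomal genes higher and 6.51% lower. None of the 4 passed once scan day was a random block (limma adjusted p from 0.086 to 0.185). They were Dlx1, Hoxd9, Bmp2 and Foxa2, transcription factor and growth factor genes of the embryo, each read by 1 or 2 probes. Bmp2 stood at 1.24 for ARF-112, 0.55 for ARF-104, 0.11 for ARF-110, 0.93 for ARF-128 and 0.78 for ARF-129. Among 38 genes of clustered families 5 were higher and 5 lower (median 0.07), 9 of these 10 read by 1 probe each, and none passed with that block (limma adjusted p from 0.063 to 0.192). The beta-defensin genes Defb20, Defb21 and Defb22, the lipocalin gene Lcn12 and Wfdc2 were the higher ones, and the interleukin 1 family genes Il1f6, Il1f9 and Il1f10, Lcn2 and the seminal vesicle gene Svs3a the lower ones. A gene read by 1 probe has no second probe to check it against.

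Wt1, a mesothelial transcription factor gene and tumour suppressor, stood at -0.30 for ARF-104, 0.05 for ARF-110, -0.10 for ARF-112, -0.47 for ARF-128 and -0.25 for ARF-129, but at 0.27 on the sparser ARF-128 array. On the 3 named tumour suppressors of cell division and differentiation the tumours were mostly below 0: Bub1b, a spindle checkpoint gene, at 0.25 for ARF-112, against -0.25 for ARF-104, -0.13 for ARF-110, -0.69 for ARF-128 and -0.27 for ARF-129, its partner Bub1 at -0.01 for ARF-112, against -0.47 for ARF-104, -0.09 for ARF-110, -0.68 for ARF-128 and -0.49 for ARF-129, and Elf5, an epithelial transcription factor gene, at 0.06 for ARF-112, against -0.46 for ARF-104, -0.30 for ARF-110, -0.97 for ARF-128 and -0.17 for ARF-129. In each of the 3 ARF-112 was highest and ARF-128 lowest, and Bub1b and Bub1 lie in the distal gain of ARF-112. The 3 were named for means far from 0, so their sign describes the choice. Other listed suppressors had means above 0, such as Rbl1 (0.18), Ehf (0.14) and Trp53bp1 (0.11), while the median over the 20 tested was -0.10. In NF-kB signalling, Traf2, an adaptor of TNF receptors, stood at 0.32 for ARF-104, -0.03 for ARF-110, 0.52 for ARF-112, 0.13 for ARF-128 and 0.55 for ARF-129, and Ifih1, a sensor of viral RNA, at -0.19 for ARF-104, -0.55 for ARF-110, -0.06 for ARF-112, -0.35 for ARF-128 and -0.10 for ARF-129. None of Wt1, Bub1b, Bub1, Elf5, Traf2 and Ifih1 passed the test (limma adjusted p from 0.079 to 0.264).

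Single probes far from 0 in all 4 tumours of the denser design took a smaller share on chromosome 2 than over the autosomes. The autosomal shares keep the Olfr probes of the other chromosomes. Of 16464 probes with a value in all 4 tumours of the denser design, 55 (0.334%) lay at or below -1 in each, against 0.603% of autosomal probes, and 9 (0.0547%) at or above 1, against 0.143%. The 55 low probes had a mean GC content of 33.7% and the 9 high ones of 41.3%. Of the low probes 12 were also on the sparser design, and in ARF-110 1 of these lay at or below -1, a Mroh8 probe at -1.29, while the median of the 12 was -0.35. Each of the 12 was less low in ARF-110 than in the 4 tumours of the denser design. The 12 were chosen for being low in those 4 tumours, so this describes the choice. On the sparser ARF-128 array the same 12 probes ran from -1.63 (AK029730) to -0.54 (St8sia6).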

How the data were processed

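Per the labels, tumour DNA (Cy5) and C57BL/6J DNA (Cy3) were cut with AluI and RsaI and hybridised on 2-colour Agilent arrays, 4 of the denser and 2 of the sparser design. Per the file headers, the authors made the processed red and green intensity and the log10 ratio per spot in Agilent Feature Extraction, version 8.5.1.1 (sparser design), 9.1.3.1 or 9.5.3.1 (ARF-128, denser), with spatial detrending and linear dye normalisation. The deposited value table holds log10 values for the sparser and log2 values for the denser design; how it was made is not stated. The mm7 positions come from the header of 1 denser file and were applied by probe name; no source used here names a build for the sparser design.

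Log2 ratios of the deposited processed intensities were taken, control and outlier spots left out, repeated probes averaged, and arrays centred on the autosomal median. Segments came from PELT (penalty 5 log n, at least 5 probes, calls at 0.25, numba 0.67.0). A gene's value is the mean of its probes, and its position runs from its first to its last probe. Of 1912 gene names on the chromosome, a RefSeq table, used for names only, matched 1161 through accessions, 13 through symbols and 17 through synonyms, and 721 keep the name in the files. Another 2 names whose probes spanned over 3 Mb were left out.

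Means were tested against 0 with limma 3.58.1 (intercept, eBayes, Benjamini-Hochberg over all autosomal bins or genes), which ignores any spread of the reference, and chromosome means by exact sign-flip permutation. The labels do not say how the tumours were sampled beyond their names, so p-values measure only the spread between them. Per the file headers the arrays fell into 3 scan days (ARF-110 and the sparser ARF-128; ARF-104, ARF-112 and ARF-129; the denser ARF-128), which entered limma as a random block (statmod 1.5.0, R 4.3.3). Scripts were tested on simulated data. Precision is limited by the number of arrays. On chromosome 2, 4 to 115 spots per array were not well above background and at most 1 was saturated.

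The members, the gene lists and the tests were chosen with earlier results of these data known. Genes were named by rule: up to 4 per list with the mean furthest from 0, the 10 highest and 10 lowest with 1 sign in all tumours (3 or more probes each), up to 5 with most probes in a called segment of 3 Mb or less, and the gene nearest to each boundary of 0.25 or more; 2 genes that the rule named are not reported here. Alternatives changed the background correction (normexp, offset 50), ratio, centring, ARF-128 array, probe set, thresholds, penalty and tumours. GC correction (on probe GC and the GC of probes within 250 kb) and the deposited value table were added after seeing the data. Python 3.11.15, numpy 2.4.6, pandas 2.3.3 and matplotlib 3.10.9 were used.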

Additional observations from a re-analysis of the deposited data

Results flagged for a closer look

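In 5 tumours the highest or lowest value was set against the others, and 10 of 80 sets of 5 values had 1 tumour far from the rest (Dixon's rule at the 95% level, which chance alone passes in about 5% of sets). Some sets are stretches called because 1 tumour was extreme there, or genes named for lying in them. The 5% does not apply to those sets, and their flags describe the choice. In ARF-112 the mean of chromosome 2 (0.21), its difference from the other autosomes (0.25), its distal stretch (0.43), its gained share of bins (45.2%) and the probes of the distal gain (0.39) lay far above the other tumours, and these 5 values describe 1 change. Of 62 named genes 4 had such a tumour. Ncoa6, in the distal gain, stood at 0.42 in ARF-112 against a median of 0.04. Prkcq (-0.90), Mindy3 (-1.02) and Pter (-0.88) stood far below the other tumours in ARF-104, as did the probes of its second loss (-0.94). The probes of the first loss of ARF-104 and of the ARF-112 loss did not pass the same rule.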

How the results depend on the processing

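Of the values for the whole chromosome, 164 kept their direction and size under an alternative, 36 moved and 10 reversed; for single genes 933 kept direction and call, 46 newly passed, 102 no longer passed and 35 reversed. The causes were not tested. GC correction and the deposited value table were chosen after seeing the data. No paired analysis was possible because the tumours form 1 group against a common reference. The noise of ARF-128 and the wide probe spacing of ARF-110 limit what short changes could be seen there.

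The mean of chromosome 2 (0.0017) was -0.034 when centred on the mode, -0.00041 with the sparser ARF-128 array and -0.0038 on probes of both designs; relative to the other autosomes it was -0.0079 with normexp background, and the middle stretch was 0.0048 with GC correction. The 9 boundaries became 4 (normexp), 5 (shared probes), 23 (penalty 2.5 log n) and 5 (penalty 10 log n). Of bins, 1 was higher on shared probes (5 unadjusted), and the lower ones (1) numbered 0 with normexp, GC correction or segment means (3, 6 and 4 unadjusted), 2 centred on the mode, 3 with the scan block, 6 with the sparser ARF-128 array and 11 on shared probes. The higher genes (5.98% of those tested) became 3.79% (mode), 11.6% (sparser ARF-128 array), 10.6% (mean of both ARF-128 arrays), 10.2% (shared probes), and 0% with the scan block or segment means (134 and 0 genes unadjusted). The lower genes (4.18%) became 1.22% (normexp), 7.13% (sparser array), 7.20% (both arrays), 8.68% (shared probes), and 0% with the scan block or segment means (119 and 1 unadjusted); with Olfr probes kept they numbered 101 in place of 65.

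With 1 tumour left out, the higher genes ranged from 0% (without any 1 of ARF-129, ARF-112 and ARF-104) to 10.03% (without ARF-110) and the lower from 0% (the same 3) to 5.53%, higher bins stayed at 0 and lower bins at 0 to 1 (1 without ARF-128 only). Boundaries ranged from 5 (without ARF-104) to 9, the gained share of bins from 0% (without ARF-112) to 11.3% and the lost share from 0.904% to 1.51%. The mean ranged from -0.051 (without ARF-112) to 0.027 (without ARF-104), the difference from other autosomes from -0.048 to 0.039, the proximal stretch from -0.057 to 0.010, the middle from -0.066 to 0.0049 and the distal from -0.022 to 0.10, in each case without the same 2 tumours.

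Gene means that reversed were Sfmbt2 0.0087, Hacd1 0.029 and Wt1 0.035 with normexp; Calcrl -0.0052 with the mode; and Hacd1 0.027 and Calcrl -0.048 with the sparser ARF-128 array. On shared probes they were Sfmbt2 0.068, Prkcq 0.0050, Pter 0.20, Rsu1 0.13, Hacd1 0.14, Calcrl -0.32, Wt1 0.072, Sirpa -0.28, Ncoa6 -0.10 and Gnas -0.13. On segment means Obp2a was 0.067, Emilin3 0.071, Nr5a1 -0.039, Calcrl -0.071, Sdcbp2 0.054, and Bub1b, Snrnp200, Bub1, Zc3h8 and Crls1 0.027. Leaving out 1 tumour gave Prkcq -0.21 to 0.071, Pter -0.22 to 0.029 and Rsu1 -0.18 to 0.082 (above 0 without ARF-104), Sirpa -0.025 to 0.26, H13 -0.046 to 0.11 and Gnas -0.011 to 0.11 (below 0 without ARF-112), and Calcrl -0.0045 (without ARF-128) to 0.056.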
